A study of Mus musculus with 9 samples.

Results

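The transcripts described here are those of the receptors for acetylcholine in the mouse hippocampus and of the enzyme that breaks acetylcholine down. The members were chosen by gene name and are 9 of the 54532 genes listed: the muscarinic receptors Chrm1, Chrm2, Chrm3 and Chrm4, the nicotinic receptor subunits Chrna4, Chrna5, Chrna7 and Chrnb2, and Ache. Acetylcholine reaches the hippocampus mainly through axons of the medial septum and diagonal band of the basal forebrain, and this input is known for its part in attention and memory formation. Muscarinic receptors are G protein-coupled and act slowly, Chrm1 and Chrm3 through Gq and phospholipase C, and Chrm2 and Chrm4 through Gi, which lowers cyclic AMP. Nicotinic receptors are ligand-gated cation channels of 5 subunits and act fast, and acetylcholinesterase, the product of Ache, ends the signal by hydrolysing the transmitter.

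Bulk RNA of the hippocampus was sequenced in 3 groups of 3 libraries, and the study asked how a methionine-rich diet, which raises homocysteine, and betaine, which lowers it, bear on the hippocampus. All mice were bought at 6 to 8 weeks of age, and the growth protocol of the labels names the strain C57BL/6 for all 3 groups. Con mice received a standard diet and HMD mice one high in methionine over 8 weeks. Bet+HMD mice had 8 weeks of the HMD diet and then drank water with 2.5% (w/v) betaine during a further 2 weeks. Whether the HMD diet went on in those 2 weeks is not clear from the labels, so that betaine and a change of diet cannot be told apart in the Bet+HMD comparisons. No genotype other than wild type is given for any group. The labels of Con and HMD place sampling after 8 weeks of diet, so that the longer time to sampling of Bet+HMD cannot be told apart from betaine. The strain cells of the Bet+HMD libraries read C57BL/6, C57BL/7 and C57BL/8. The labels call the mice male, whereas the study's methods describe females, and in all 9 libraries the Y-linked gene Ddx3y was read at 12.7 to 21.2 FPKM while Xist was at most 0.0449 FPKM. No source used here says that each library came from a separate animal, so that p-values measure the spread between these libraries, which may be in part technical.

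Values are FPKM, fragments scaled by the length of the gene model and by library size, in 2 deposited tables that were scaled separately. The earlier table holds Con and HMD and was used for HMD against Con, and the later table holds these libraries again with Bet+HMD and was used for both Bet+HMD comparisons. Depth was 16449388 to 18566712 assigned reads a library in the earlier table and, in the other, 16031464 to 18291952. HMD replicate 1 held 104.5 FPKM over 9 markers of the thalamus, against 33.6 and 44.7 FPKM in the other HMD libraries and 19.9 to 26.4 FPKM in Con, and 26.7 FPKM over 7 markers of the medial habenula, against 5.65 to 7.67 FPKM in the other 5 libraries of that table. The 3 Bet+HMD libraries had 1.42% ± 0.0260 (SD, n = 3) of their reads in lincRNA genes, against 0.515% ± 0.0174 in Con and 0.508% ± 0.0453 in HMD. Bet+HMD libraries are found in the later table only, and when and how they were sequenced is not given in the sources used here, so that betaine cannot be told apart from any difference in how these libraries were made.

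All 9 members passed the filter of a mean of at least 1 FPKM in every comparison. Chrm1 was the highest member in each group, at 30.6 ± 4.04 FPKM in Con, 25.0 ± 1.87 FPKM in HMD and 30.2 ± 0.316 FPKM in Bet+HMD (SD, n = 3, later table), which put it at the 94.4th, 92.9th and 95.9th percentile of all genes read in each group. In Con, the levels of Chrm3, Chrm4, Ache, Chrnb2 and Chrna7 followed between 9.47 and 6.28 FPKM, and no neighbours among these 5 were separated beyond their spread. Chrna4 came next at 4.45 ± 0.709 FPKM, and Chrm2 at 1.77 ± 0.556 FPKM and Chrna5 at 1.39 ± 0.603 FPKM lay lowest with overlapping values. Chrna5 was the lowest of the 9 in each group.

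**Figure D1:**
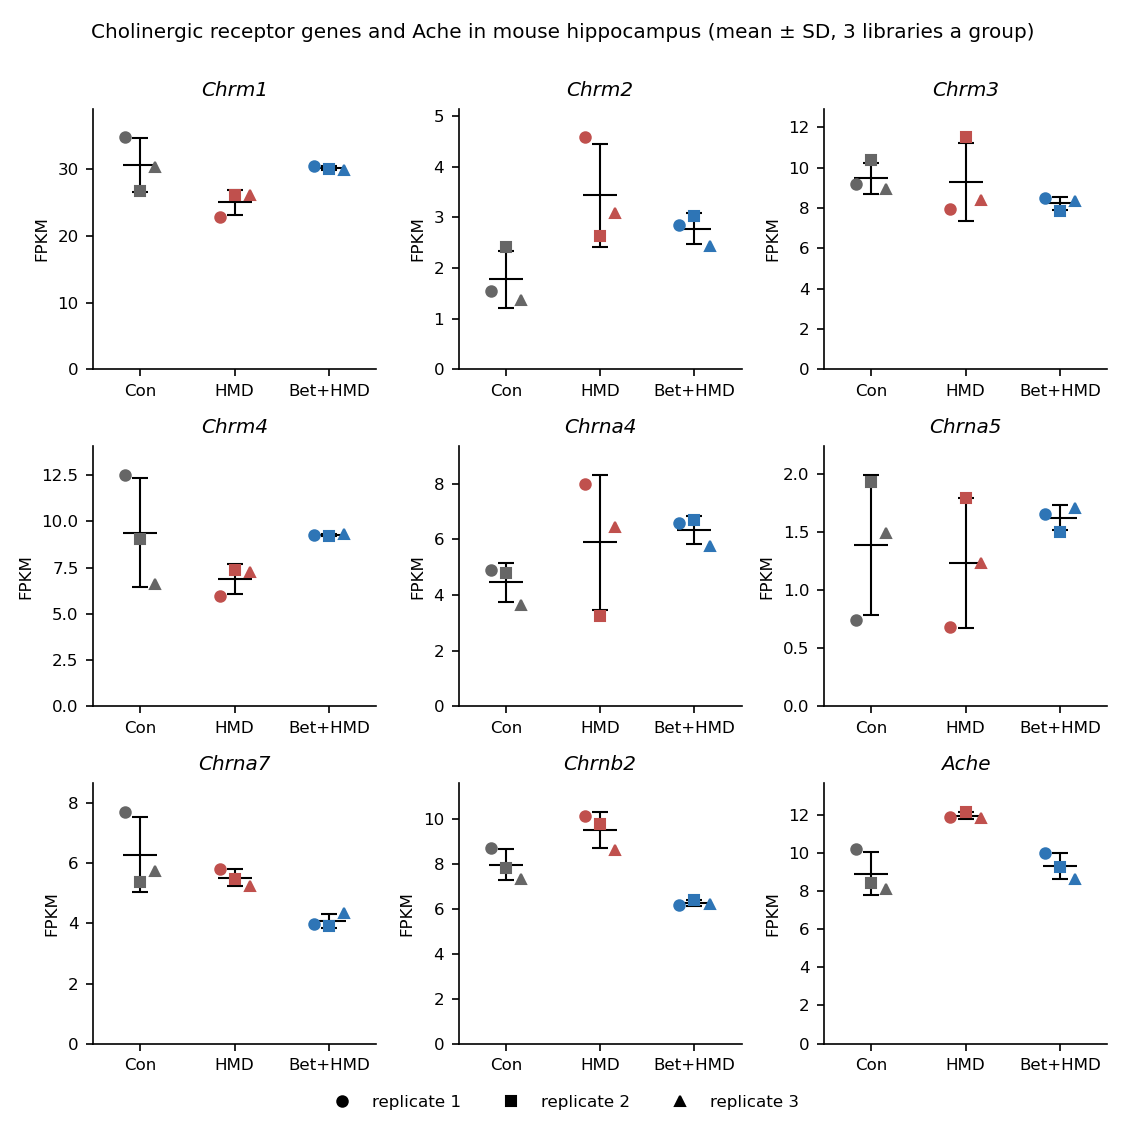
FPKM (linear axes from 0) of the 9 members in each library of the later table, by group, with markers for replicates 1 to 3 and bars for the mean ± SD. The 3 Bet+HMD libraries lie within 9.23 to 9.33 FPKM for Chrm4, and they lie below every other library for Chrna7 and Chrnb2.

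The replicates of Bet+HMD lay close together. On the log2(FPKM + 1) scale, the SD of 7 of the 9 members was lowest in Bet+HMD, 0.0076 for Chrm4 against 0.151 in HMD and 0.414 in Con. The exceptions were Chrna7 and Ache, whose SD was lowest in HMD. Over all genes of at least 1 FPKM, 65.6% had their lowest SD in Bet+HMD.

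Between HMD and Con, Ache and Chrm2 lay higher and Chrm1 lower in every HMD library than in any Con library, but these differences did not pass the test over all genes. For HMD against Con, no member passed an adjusted p under 0.05 by limma, and no gene at all did (0% of 12989 tested). At an unadjusted p under 0.05, 2 of the 9 members and 4.56% of all genes passed. The libraries of both groups did not overlap for 3 of the 9 members and for 9.37% of all genes, and limma voom on the recovered reads also called none of all genes. A limma fit of all 3 groups in the later table called 9 genes for this comparison, none of them a member.

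Chrm1, the main Gq-coupled receptor of hippocampal pyramidal neurons, was read at 34.3, 26.6 and 29.6 FPKM in Con and at 22.7, 25.8 and 25.9 FPKM in HMD. Every HMD library lay below every Con library. The log2 fold change was -0.27 (SE 0.13, adjusted p = 0.98, limma), which did not pass the test. Summed FPKM of 8 markers of hippocampal principal neurons was 186 to 219 in HMD, below the 222 to 245 of Con. By limma, 4 of the 8 had an unadjusted p under 0.05 and none was called, with 5 going down and 3 up. HMD replicate 1 was lowest for this sum and for Chrm1. Con replicate 2 was highest for the sum but the lowest Con library for Chrm1. The part of these cells in the Chrm1 difference was not tested. In bulk tissue, fewer cells of a type and less RNA per cell cannot be told apart, for this gene as for all that follow.

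Chrm2, the Gi-coupled autoreceptor of cholinergic terminals, which is also found on interneurons, was read at 1.49, 2.35 and 1.33 FPKM in Con and at 4.49, 2.50 and 3.02 FPKM in HMD. The HMD libraries lay higher without overlap, replicate 1 highest by far. The log2 fold change was 0.66 (SE 0.21, adjusted p = 0.98, limma), with 0.48 without HMD replicate 1. The thalamus markers were highest in that same replicate, and all 8 of the thalamus markers tested had a higher mean in HMD, 6 of them at an unadjusted p under 0.05 and none past the threshold. Without HMD replicate 1 the sums of that list were still 33.6 and 44.7 FPKM, above every Con library, and its part in the Chrm2 difference was not tested.

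Chrm3, the other Gq-coupled receptor, averaged 9.11 ± 1.74 FPKM in HMD and 9.25 ± 0.765 FPKM in Con, and the log2 fold change was -0.03 (SE 0.14, adjusted p = 0.99, limma). Chrm4, the other Gi-coupled receptor, was read at 12.6, 9.30 and 6.43 FPKM in Con and at 5.91, 7.71 and 7.38 FPKM in HMD. Its groups overlapped, Con replicate 3 lying among the HMD libraries, and its log2 fold change was -0.35 (95% interval -0.86 to 0.16). Together with Chrm5, the muscarinic transcripts summed to 53.1 ± 6.18 FPKM in Con and 46.7 ± 3.59 FPKM in HMD (SD, n = 3), and the share of Chrm2 in that sum was 3.30% ± 1.21 in Con and 7.29% ± 2.82 in HMD.

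None of the 4 nicotinic members separated Con from HMD. Chrna4, which forms with Chrnb2 the high-affinity receptor of the brain, was read at 4.81, 4.66 and 3.54 FPKM in Con and at 7.85, 3.14 and 6.41 FPKM in HMD. HMD thus held both the highest and the lowest library, and the log2 fold change of 0.29 (SE 0.27) was 0.06 without HMD replicate 1 and 0.61 without HMD replicate 2. In these 3 HMD libraries the thalamus sum was 104.5, 33.6 and 44.7 FPKM, so that Chrna4 and that list were highest and lowest in the same HMD libraries. Against Con they differed in HMD replicate 2: Chrna4 lay below every Con library there, and the thalamus sum above the 19.9 to 26.4 FPKM of Con. The part of thalamic tissue in the Chrna4 level was not tested.

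Chrna5, an accessory subunit that does not bind acetylcholine in these receptors, was read at only 43 to 98 reads in each library, and its groups overlapped, with a log2 fold change of -0.08 (SE 0.23). Chrna7, which forms the calcium-permeable alpha7 receptor, averaged 6.16 ± 1.22 FPKM in Con and 5.41 ± 0.242 FPKM in HMD, a log2 fold change of -0.15 (95% interval -0.47 to 0.17). Chrnb2 averaged 7.82 ± 0.713 FPKM in Con and 9.29 ± 0.861 FPKM in HMD, a log2 fold change of 0.22 (95% interval -0.05 to 0.49). None of these 3 passed the test.

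Ache was read at 10.1, 8.25 and 7.92 FPKM in Con and at 12.0, 11.8 and 11.6 FPKM in HMD. Every HMD library lay above every Con library, and the HMD libraries spanned less than 1 FPKM. The log2 fold change was 0.40 (SE 0.12, unadjusted p = 0.00911 and adjusted p = 0.906, limma), the smallest unadjusted p among the members. It stayed between 0.34 and 0.50 when each library was left out in turn, and 0.39 without HMD replicate 1. In the later table the corresponding means were 8.91 ± 1.12 and 11.9 ± 0.168 FPKM.

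**Figure D2:**
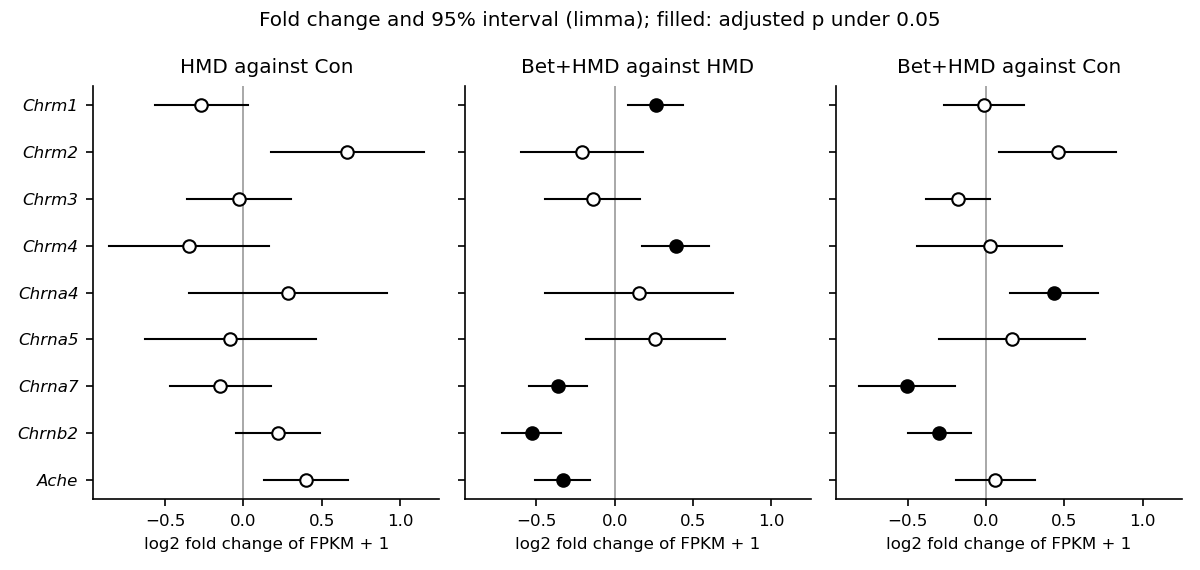
Log2 fold change of FPKM + 1 for each member (points) with its 95% interval (lines) in the 3 comparisons, with filled points for a limma adjusted p under 0.05. No member is filled for HMD against Con, 5 are for Bet+HMD against HMD, and 3 are for Bet+HMD against Con.

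For Bet+HMD against HMD, 5 of the 9 members passed the threshold: Chrm1 and Chrm4 were higher in Bet+HMD, and Chrna7, Chrnb2 and Ache were lower. Over all genes the threshold was passed by 48.3% of 13672 tested, 22.8% higher and 25.5% lower, so that the members' share lay close to that of all genes. The libraries did not overlap for 5 of the 9 members and for 60.1% of all genes. The split between directions depended on the scaling: of all genes called, 47.2% were higher on the FPKM scale and 69.5% when FPKM was rescaled to the same sum in every library (TPM), which moved the median of all genes to 0.16 on the log2 scale. The median of the 9 members was -0.14, and that of all genes -0.03.

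Chrm1 was read at 22.9, 26.1 and 26.1 FPKM in HMD and at 30.5, 30.0 and 29.9 FPKM in Bet+HMD. All Bet+HMD libraries lay above all HMD libraries, and the log2 fold change was 0.26 (SE 0.075, adjusted p = 0.0241, limma). The call was lost when HMD replicate 1 was left out (adjusted p = 0.0570) or when any Bet+HMD replicate was (0.0704 to 0.0873), and in a limma fit of all 3 groups together (adjusted p = 0.0729).

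Chrm4 was read at 5.96, 7.39 and 7.28 FPKM in HMD and at 9.27, 9.23 and 9.33 FPKM in Bet+HMD. The groups did not overlap, and the log2 fold change was 0.39 (SE 0.091, adjusted p = 0.0106, limma). The call was lost in the limma fit of all 3 groups (adjusted p = 0.112), in which the wide spread of Chrm4 in Con enters. The gene model of Chrm4 in the table is a single exon of 1440 bases, its coding sequence almost alone, so that its FPKM rests on 149 to 235 reads per library of these groups.

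Chrm2 averaged 2.77 ± 0.307 FPKM in Bet+HMD and 3.43 ± 1.02 FPKM in HMD, a log2 fold change of -0.21 (95% interval -0.60 to 0.18). Chrm3 averaged 8.23 ± 0.326 FPKM in Bet+HMD and 9.28 ± 1.93 FPKM in HMD, a log2 fold change of -0.14 (95% interval -0.45 to 0.16) that was 0.04 on the TPM scale. Neither passed the test, and the libraries of both groups overlapped for both genes. As a share of the muscarinic sum, Chrm1 and Chrm4 made up 58.9% ± 0.563 and 18.1% ± 0.341 in Bet+HMD, against 53.3% ± 2.06 and 14.6% ± 0.931 in HMD (SD, n = 3).

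Chrnb2 showed the largest fall of the 9 members. It was read at 10.1, 9.81 and 8.62 FPKM in HMD and at 6.16, 6.41 and 6.24 FPKM in Bet+HMD, with no overlap. The log2 fold change was -0.53 (SE 0.080, adjusted p = 0.00177, limma), it was past the threshold under each of the 8 other settings tried and without each of the 6 libraries in turn, and relative to the median of all genes it was -0.51 on the FPKM and -0.55 on the TPM scale. Exons of Adar, an RNA-editing enzyme gene on the opposite strand, cover 16.3% of the exonic bases of Chrnb2 in GENCODE M21. Adar was at 17.7 to 18.8 FPKM in Bet+HMD and at 12.2 to 12.5 FPKM in HMD, the other direction than Chrnb2, and the reads of both genes cannot be told apart there unless the counting used the strand, which is not stated.

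Chrna7 was read at 5.83, 5.48 and 5.26 FPKM in HMD and at 3.99, 3.90 and 4.35 FPKM in Bet+HMD. The groups did not overlap, and the log2 fold change was -0.36 (SE 0.078, adjusted p = 0.00817, limma). On the TPM scale it was -0.22 (adjusted p = 0.0845), which relative to the median of all genes on that scale was -0.38. Chrna4 and Chrna5 did not pass the test, with log2 fold changes of 0.16 (95% interval -0.44 to 0.76) and 0.26 (95% interval -0.19 to 0.71). Without HMD replicate 2, the log2 fold change of Chrna4 was -0.16.

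Ache was read at 11.9, 12.1 and 11.8 FPKM in HMD and at 9.99, 9.28 and 8.62 FPKM in Bet+HMD. Every Bet+HMD library lay below every HMD library, and the log2 fold change was -0.33 (SE 0.075, adjusted p = 0.00946, limma). On the TPM scale it was -0.16 (adjusted p = 0.122), which relative to the median of all genes was -0.32. A lincRNA gene on the opposite strand, Gm42456, shares 2.12% of the exonic bases of Ache and was at 4.53 to 6.68 FPKM in Bet+HMD and 1.18 to 1.49 FPKM in HMD.

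For Bet+HMD against Con, 3 of the 9 members passed the threshold: Chrna4 was higher in Bet+HMD, and Chrna7 and Chrnb2 were lower. This compares with 39.7% of 13643 genes tested, 19.4% higher and 20.4% lower. The libraries did not overlap for 5 of the 9 members and for 55.1% of all genes. Both Bet+HMD comparisons use the same Bet+HMD libraries, and HMD against Con shares libraries with each of them, so that the 3 sets of values are not independent. Of all genes called, 48.8% were higher on the FPKM scale and 73.5% on the TPM scale, where the median of all genes was 0.17. When any 1 Bet+HMD replicate was left out, no member passed.

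Chrna4 was read at 4.91, 4.80 and 3.63 FPKM in Con and at 6.57, 6.68 and 5.75 FPKM in Bet+HMD. The groups did not overlap, and the log2 fold change was 0.43 (SE 0.12, adjusted p = 0.0269, limma). Without Bet+HMD replicates 1, 2 and 3 in turn the adjusted p was 0.0941, 0.0993 and 0.0511. In the limma fit of all 3 groups it was 0.181, and with no filter on low values 0.0560. Chrna4 was the only member called higher against Con, and against HMD it was not called.

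Chrna7 was read at 7.71, 5.38 and 5.75 FPKM in Con and at 3.99, 3.90 and 4.35 FPKM in Bet+HMD. The log2 fold change of Chrna7 was -0.51 (SE 0.13, adjusted p = 0.0208, limma). Con replicate 1 lay highest, and without it the log2 fold change was -0.37 (adjusted p = 0.0284). Without a Bet+HMD replicate the adjusted p was 0.0537 to 0.0771, and on the TPM scale it was 0.109. Chrnb2 averaged 7.97 ± 0.688 FPKM in Con and 6.27 ± 0.126 FPKM in Bet+HMD. The log2 fold change of Chrnb2 was -0.30 (SE 0.085, adjusted p = 0.0296, limma). Its call was lost without Con replicate 1 (adjusted p = 0.0694), without any Bet+HMD replicate (0.0915 to 0.108) and on the TPM scale (adjusted p = 0.380). Chrna7 and Chrnb2 were thus called lower in both comparisons, which share the Bet+HMD libraries.

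Of the muscarinic receptors, none passed against Con. Chrm2 was read at 1.53, 2.41 and 1.37 FPKM in Con and at 2.85, 3.03 and 2.43 FPKM in Bet+HMD. All Bet+HMD libraries lay above the highest Con library, replicate 3 only just, and the log2 fold change was 0.46 (SE 0.16, adjusted p = 0.0553, limma). It passed on the TPM scale (adjusted p = 0.0158), with median centring (0.0470), by limma voom on the recovered reads (0.0243) and without Con replicate 2 (0.00922). Chrm3 lay lower without overlap at a log2 fold change of -0.18 (95% interval -0.38 to 0.02), and Chrm1, Chrm4, Chrna5 and Ache overlapped between both groups at log2 fold changes of -0.01, 0.02, 0.17 and 0.06.

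**Figure D3:**
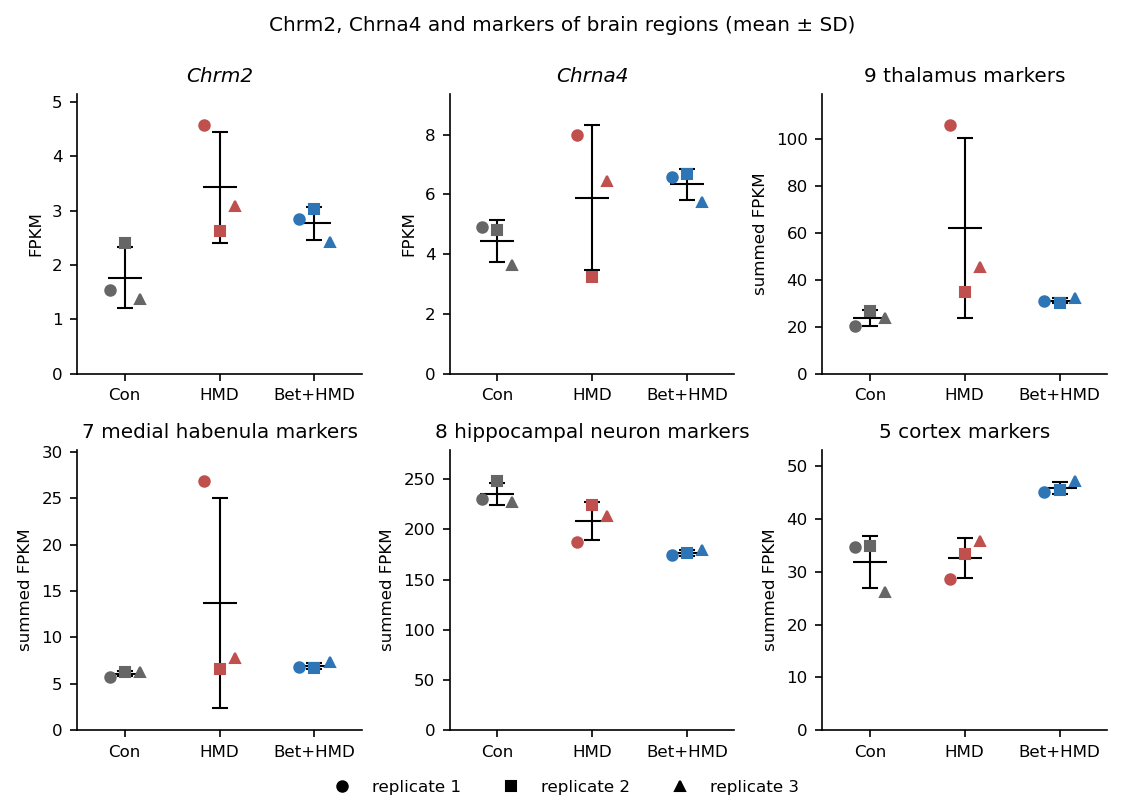
FPKM of Chrm2 and Chrna4 and summed FPKM of 4 lists of region markers (linear axes from 0) in each library of the later table, by group, with bars for the mean ± SD. HMD replicate 1 is highest for Chrm2, Chrna4, the thalamus list and the medial habenula list, and the Bet+HMD libraries are lowest for hippocampal neuron markers and highest for cortex markers.

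Several marker lists differed between Bet+HMD and the groups it was compared with. The summed level of 8 markers of hippocampal principal neurons was 174 to 179 FPKM in Bet+HMD, 187 to 225 FPKM in HMD and 228 to 248 FPKM in Con, with 3 of 8 called lower against HMD, and 3 lower and 1 higher against Con. Fibcd1, a marker of CA1, was lower in Bet+HMD at 13.3 ± 0.223 FPKM, against 24.1 ± 3.31 FPKM in HMD and 35.1 ± 4.79 FPKM in Con. Prox1, a marker of dentate granule cells, was not called and averaged 16.3, 18.4 and 14.4 FPKM in Bet+HMD, HMD and Con. The list did not move one way, since Neurod6 and Zbtb20 had higher means in Bet+HMD than in HMD and Zbtb20 was the marker called higher against Con.

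The 5 cortex markers summed to 45.1 to 47.2 FPKM in Bet+HMD, 28.6 to 35.9 FPKM in HMD and 26.1 to 34.8 FPKM in Con, with 2 called higher against HMD and 3 against Con. Cux2, a marker of upper cortical layers, averaged 6.44 ± 0.468, 3.07 ± 0.606 and 2.85 ± 0.497 FPKM in Bet+HMD, HMD and Con, and Lamp5 averaged 14.2 ± 0.344, 9.46 ± 3.35 and 11.1 ± 1.27 FPKM. The 9 thalamus markers summed to 30.0 to 32.1 FPKM in Bet+HMD, below the 34.8 to 105.9 FPKM of HMD and above the 20.2 to 26.9 FPKM of Con. All 8 tested had a lower mean in Bet+HMD than in HMD, with 3 called, among them Prkcd at 5.53 ± 0.0748 against 12.9 ± 6.91 FPKM, while Tcf7l2, at 1.14 ± 0.0837 against 4.93 ± 5.08 FPKM, was not called.

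The 7 markers of GABAergic interneurons summed to 254 to 319 FPKM in Bet+HMD, 346 to 492 FPKM in HMD and 379 to 467 FPKM in Con, with 3 called lower against HMD and 2 against Con. Gad1 and Gad2, which make GABA, averaged 38.1 and 29.5 FPKM in Bet+HMD, 52.4 and 42.5 FPKM in HMD, and 43.1 and 32.9 FPKM in Con. The 5 astrocyte markers summed to 195 to 196 FPKM in Bet+HMD, 227 to 248 FPKM in HMD and 228 to 235 FPKM in Con. Gfap and Aqp4 were at 51.6 and 27.9 FPKM in Bet+HMD and at 81.4 and 34.1 FPKM in HMD. The astrocyte list did not move one way: against HMD 2 of the 5 were called lower, and 2 of the 5 had a higher mean. Sums of microglia, endothelium and blood markers were also lower in Bet+HMD than in HMD without overlap, while those of striatum, medial habenula, oligodendrocytes and choroid plexus overlapped. A higher mean in Bet+HMD than in HMD was found for 2 of 4 microglia, 1 of 4 endothelium and 0 of 5 blood markers. Of all genes, 25.5% were called lower and 22.8% higher against HMD, and 20.4% and 19.4% against Con. The parts of these cells and regions in the values of Chrm1, Chrm4, Chrna4, Chrna7, Chrnb2 and Ache were not tested.

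Ratios of members within a library do not depend on its scaling. The ratio of Chrna4 to Chrnb2 was 0.563, 0.613 and 0.493 in Con, 0.787, 0.330 and 0.748 in HMD, and 1.07, 1.04 and 0.921 in Bet+HMD. The Bet+HMD libraries lay above all 6 others. As a share of all nicotinic subunit FPKM, Chrna4 made up 30.4% ± 2.29 and Chrnb2 30.1% ± 0.236 in Bet+HMD, against 22.2% ± 7.03 and 37.1% ± 5.20 in HMD and 20.0% ± 1.85 and 36.0% ± 0.613 in Con (SD, n = 3). The exact permutation test, two-sided, gave p = 0.1 against each group, the smallest that 3 libraries against 3 can give, and 0.45 after adjustment over 6 ratios in 3 comparisons.

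The ratio of Chrna7 to Chrnb2 in the later table was 0.884, 0.687 and 0.781 in Con, 0.574, 0.558 and 0.610 in HMD, and 0.647, 0.609 and 0.696 in Bet+HMD. HMD lay below Con without overlap, in the earlier table too, where it was 0.561 to 0.618 against 0.686 to 0.882 (exact permutation p = 0.1, adjusted 0.45). The ratio of Chrm1 to Chrm4 was 3.21 to 3.29 in Bet+HMD, below the 3.54 to 3.84 of HMD, while Con spanned 2.78 to 4.59. Gq-coupled to Gi-coupled muscarinic FPKM (Chrm1 and Chrm3 to Chrm2 and Chrm4), Chrna5 to Chrna4, and Ache to Bche, the gene of butyrylcholinesterase, overlapped between the groups in every comparison.

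**Figure D4:**
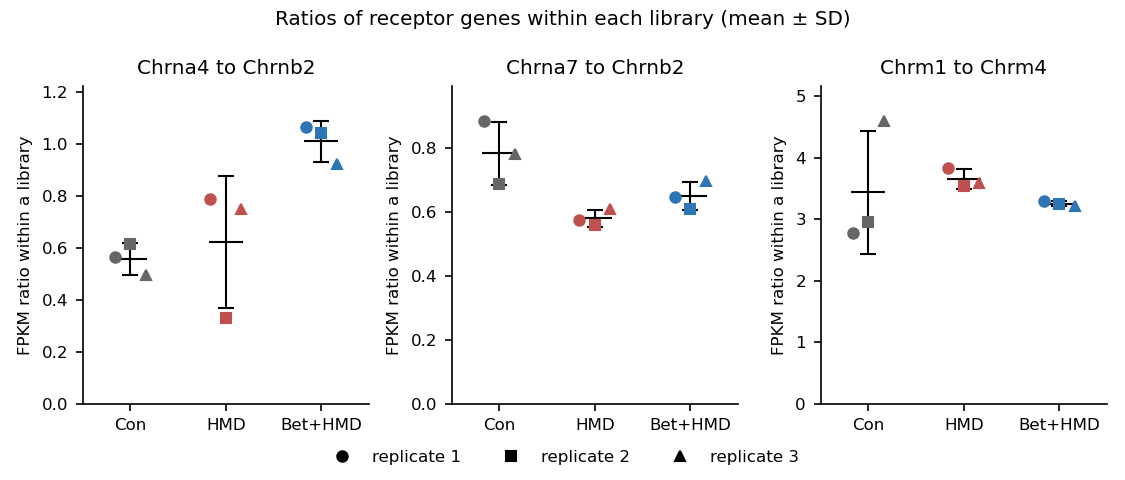
Ratio of FPKM within each library (linear axes from 0) for 3 pairs of members, by group, later table, with bars for the mean ± SD. The Chrna4 to Chrnb2 ratio is 0.921 to 1.07 in Bet+HMD and 0.330 to 0.787 in the other 6 libraries.

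The members that fell together against HMD (Chrna7, Chrnb2, Ache) and Chrm4, which rose, are shown with the 250 bases before their RefSeq start on GRCm38.p6, so that their base composition can be set beside their values. RefSeq entries were found for 8 of the 9 members, and none was read for Chrm1. Sequences run 5′ to 3′ on the strand of the gene, and capitals mark the GC box GGGCGG on either strand, overlapping matches included:
Chrna7 (chr7:63212527-63212776, - strand): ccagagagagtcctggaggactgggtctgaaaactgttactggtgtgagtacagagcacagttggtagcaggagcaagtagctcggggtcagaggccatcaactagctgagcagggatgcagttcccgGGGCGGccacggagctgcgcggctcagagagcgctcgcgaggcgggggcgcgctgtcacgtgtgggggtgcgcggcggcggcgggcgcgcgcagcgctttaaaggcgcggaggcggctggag
Chrnb2 (chr3:89764633-89764882, - strand): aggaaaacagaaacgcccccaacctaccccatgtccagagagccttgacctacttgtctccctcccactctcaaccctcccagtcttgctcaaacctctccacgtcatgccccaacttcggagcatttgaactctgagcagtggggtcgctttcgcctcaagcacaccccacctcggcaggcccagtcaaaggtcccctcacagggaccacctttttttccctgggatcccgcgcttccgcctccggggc
Ache (chr5:137288004-137288253, + strand): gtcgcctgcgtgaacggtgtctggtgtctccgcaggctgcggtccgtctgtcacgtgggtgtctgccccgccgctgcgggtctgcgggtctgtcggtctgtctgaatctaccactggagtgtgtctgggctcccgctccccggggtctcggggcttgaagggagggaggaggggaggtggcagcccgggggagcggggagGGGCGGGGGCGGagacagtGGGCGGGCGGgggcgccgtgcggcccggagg
Chrm4 (chr2:91921939-91922188, + strand): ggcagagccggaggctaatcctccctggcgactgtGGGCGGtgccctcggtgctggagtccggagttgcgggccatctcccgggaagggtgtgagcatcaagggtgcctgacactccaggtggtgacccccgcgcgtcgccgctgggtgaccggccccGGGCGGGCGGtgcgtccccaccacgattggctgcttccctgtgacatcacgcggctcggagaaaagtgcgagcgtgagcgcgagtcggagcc

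The window of Chrna7 held 1 GC box, that of Ache 4, that of Chrm4 3 and that of Chrnb2 none. Of the 8 members with a window, 6 held at least 1 GC box in any of their windows. Of all 32851 promoters of the same length, each counted singly, 32.7% did. Chrna5 alone had more than 1 window, with 0 and 4 GC boxes, and its other matches come from different windows. GC content was 67.2% for Chrna7, 59.6% for Chrnb2, 73.6% for Ache and 70.0% for Chrm4, against a median of 52.4% over all promoters. The core of the cAMP response element, TGACG on either strand, was found in the windows of Chrnb2 and Chrna5 and in 17.8% of all promoters. The left arm of the RE1 element bound by REST, TTCAGCAC, was in none of the members' windows and in 0.962% of all promoters, and its right arm, GGACAG, was in those of 3 members, Chrm2, Chrm3 and Chrna5, and in 18.7% of all promoters. These matches are letters in a window and no record of binding, and the group that fell held windows with and without a GC box. The RefSeq start of Chrm4, base 91922189, lies before the start of its gene model in the table, base 91927249, whereas for Chrnb2 both starts are the same base. For Ache the RefSeq start lies 735 bases inside the gene model, so that its whole window with its 4 GC boxes lies within that model. For Chrna7 the RefSeq start lies 43 bases inside the model.

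In the deposited tables, as in GENCODE M21 on GRCm38, Chrm1 (ENSMUSG00000032773) lies at chr19:8663789-8683587, Chrm2 (ENSMUSG00000045613) at chr6:36388084-36528414, Chrm3 (ENSMUSG00000046159) at chr13:9875486-10360847 and Chrm4 (ENSMUSG00000040495) at chr2:91927249-91928688. Chrna4 (ENSMUSG00000027577) lies at chr2:181018380-181043546, Chrna5 (ENSMUSG00000035594) at chr9:54980880-55007779, Chrna7 (ENSMUSG00000030525) at chr7:63098692-63212569, Chrnb2 (ENSMUSG00000027950) at chr3:89746195-89764632 and Ache (ENSMUSG00000023328) at chr5:137287519-137294466. FPKM of these genes counted reads in exons only, over models of 1440 bases for Chrm4 to 8380 bases for Chrnb2. Coding sequence made up 21.3% of the exonic bases of Chrm1 and 28.0% of those of Chrnb2, the rest being untranslated.

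The other genes of the cholinergic system were read from 6 lists with 51 genes, of which 34, 35 and 34 were tested in the 3 comparisons. For HMD against Con none passed the limma threshold, and 1 did at an unadjusted p under 0.05: Plcb4, a phospholipase C downstream of Gq, at 7.75 ± 3.53 FPKM in HMD and 3.45 ± 0.525 FPKM in Con. Plcb4 was highest in HMD replicate 1, the library with the most thalamus marker reads. Against HMD, 15 of 35 passed in Bet+HMD, 3 higher and 12 lower, with a median log2 fold change of -0.10, beside 48.3% of all genes called. Against Con 15 of 34 passed as well, 3 higher and 12 lower, with a median of -0.13, beside 39.7% of all genes. The medians over all genes were -0.03 and -0.04.

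Among assembly factors and modulators of nicotinic receptors, 5 of the 8 tested were called lower and none higher in Bet+HMD, against HMD and against Con alike. Of all genes, 25.5% were called lower against HMD and 20.4% against Con. Tmem35a encodes NACHO, an endoplasmic reticulum protein that neuronal nicotinic receptors need for assembly, and was read at 31.3, 26.9 and 29.5 FPKM in HMD and at 18.2, 19.1 and 18.8 FPKM in Bet+HMD. Its log2 fold change was -0.62 (SE 0.076, adjusted p = 0.000748, limma). Ric3, a chaperone of alpha7 receptors, averaged 12.5 ± 0.883 FPKM in HMD and 9.52 ± 0.336 FPKM in Bet+HMD (log2 fold change -0.36, adjusted p = 0.00746). Both lay below every Con and HMD library in Bet+HMD, as did Chrna7 and Chrnb2.

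The other 3 called lower encode GPI-anchored proteins of the Ly6 family. Ly6e fell from 43.8 ± 1.48 to 26.8 ± 1.07 FPKM (log2 fold change -0.69, adjusted p = 0.000301, limma). Ly6h, which is known to hold back alpha7 receptors, fell from 31.2 ± 6.87 to 19.3 ± 2.04 FPKM (-0.64, adjusted p = 0.0131), and Lynx1, a brake on nicotinic signalling in the adult brain, from 64.8 ± 4.38 to 52.6 ± 1.12 FPKM (-0.29, adjusted p = 0.0136). On the TPM scale, Tmem35a, Ly6h and Ly6e still passed against HMD, while Ric3 (adjusted p = 0.106) and Lynx1 (adjusted p = 0.320) did not. Lypd1, Lypd6 and Lypd6b did not pass in any comparison.

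**Figure D5:**
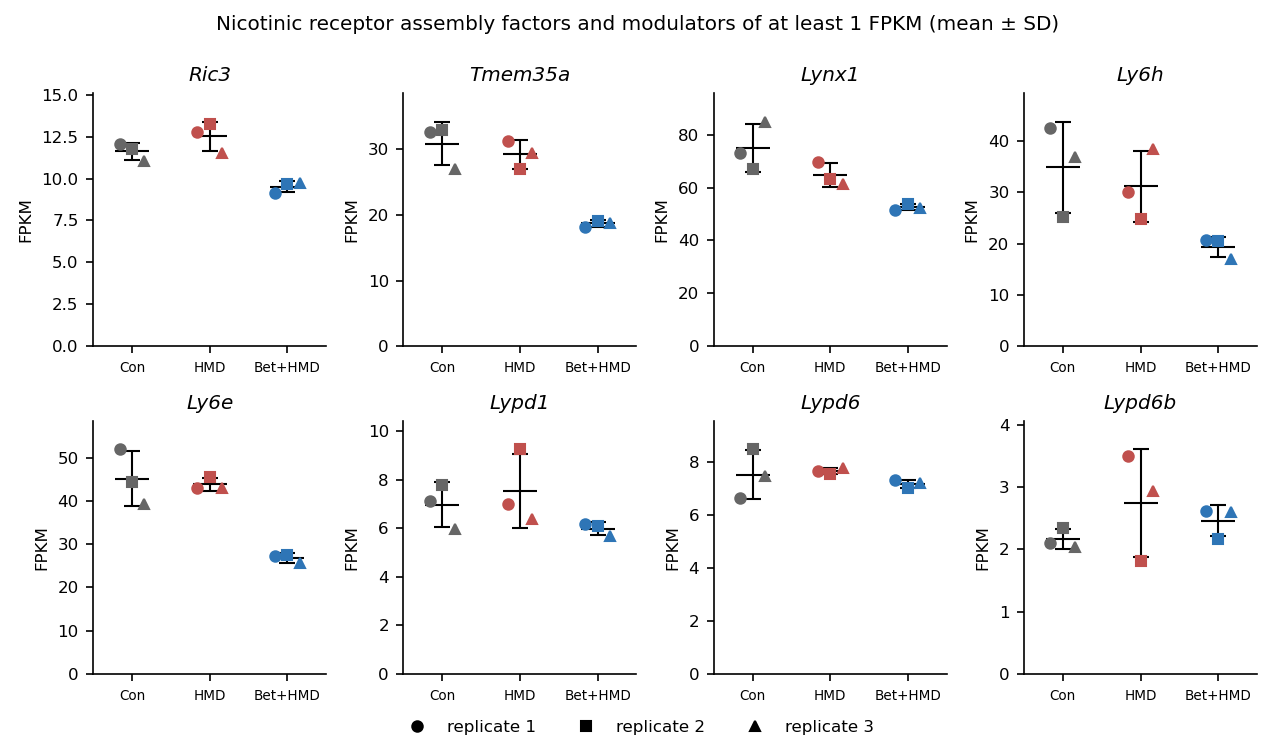
FPKM (linear axes from 0) of 8 assembly factors and modulators of nicotinic receptors in each library of the later table, by group, with bars for the mean ± SD. For Ric3, Tmem35a, Lynx1, Ly6h and Ly6e the 3 Bet+HMD libraries lie below the 6 others, and for Lypd6b the groups overlap.

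Of the other receptor subunits, 11 of 13 were below the filter in Bet+HMD against HMD, and 2 of the 13, Chrnd and Chrng, were listed at 0 in every library. Chrm5, a Gq-coupled receptor, averaged 0.771 ± 0.531 FPKM in Bet+HMD, 2.36 ± 0.406 FPKM in HMD and 2.64 ± 0.686 FPKM in Con, at 11 to 39 reads per library in Bet+HMD and 48 to 87 in the others. It was called lower against HMD (log2 fold change -0.96, adjusted p = 0.00946, limma) and against Con (-1.06, adjusted p = 0.0135). Chrna3 and Chrnb4, the subunits of habenular receptors, were read at 2.03 and 2.01 FPKM in HMD replicate 1 and at no more than 0.697 and 0.293 FPKM in the other 8 libraries of the later table.

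Of the genes of synthesis, release and breakdown, Bche and Prima1, which anchors acetylcholinesterase in the membrane, were tested and passed in no comparison. Chat, Slc18a3, Slc5a7 and Colq were below the filter in all 3 comparisons. Chat, which makes acetylcholine, had 0 to 21 reads per library of the later table, with 21 of them in HMD replicate 1. The summed level of the 7 markers of basal forebrain cholinergic neurons was 0.496 to 0.634 FPKM in Con, 0.778 to 2.53 FPKM in HMD and 0.631 to 0.747 FPKM in Bet+HMD, and none of them was tested. In HMD the 2.53 FPKM belonged to replicate 1, also highest in medial habenula markers, and the others held 0.778 and 0.917 FPKM. The list did not move one way: Lhx8, at 0 to 7 reads per library, was lower in every HMD library than in any Con library.

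Among Gq-coupled signalling genes, 1 of 10 passed against HMD, Gna11, which encodes the G alpha 11 subunit, at 24.3 ± 1.74 FPKM in Bet+HMD and 32.6 ± 2.67 FPKM in HMD (log2 fold change -0.41, adjusted p = 0.00774, limma). Among Gi-coupled signalling genes, 4 of 8 passed, of which 3 were lower. Over all genes 48.3% passed, beside 4 of 8 in the Gi list and 1 of 10 in the Gq list. Gnai1, a Gi alpha subunit, fell from 98.5 ± 18.3 to 55.0 ± 2.44 FPKM (-0.81, adjusted p = 0.00201), and Adcy5, an adenylyl cyclase that Gi inhibits, from 24.1 ± 1.25 to 16.5 ± 0.729 FPKM (-0.52, adjusted p = 0.00122), while Gnai2 fell by 0.34 on the log2 scale. Kcnj9, a subunit of G protein-gated potassium channels, rose from 12.1 ± 3.62 to 22.8 ± 1.23 FPKM (0.90, adjusted p = 0.00595).

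Among genes of receptor desensitization, 4 of 5 passed against HMD, 2 in each direction, beside 48.3% of all genes. Rgs14, a regulator of G protein signalling that marks CA2, fell from 18.3 ± 3.12 to 9.16 ± 0.691 FPKM (-0.91, adjusted p = 0.00117, limma), and Rgs4 from 55.9 ± 4.71 to 43.6 ± 1.66 FPKM (-0.35, adjusted p = 0.0114). The arrestin genes rose, Arrb1 from 21.7 ± 0.947 to 27.7 ± 0.126 FPKM (0.34, adjusted p = 0.00479) and Arrb2 from 8.53 ± 1.79 to 13.9 ± 1.57 FPKM (0.66, adjusted p = 0.0103). Against Con, the same 4 genes passed in the same directions, together with Gna11, Gnai1, Gnai2 and Adcy5 lower and Plcb4 higher (0.62, adjusted p = 0.00495).

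Across the 9 libraries of the later table, after subtracting each group's mean, the genes whose log2 values ran most like each member were named as a description, over 7526 or 7527 candidates of at least 5 FPKM. For Chrm3 they were Ptgs2 (Pearson r = 1.00) and Cdkl2 (0.99), for Chrna4 Inpp5a (0.98) and Cacng4 (0.97), and for Chrm2 Rcan2 and Zwint (both 0.97). For Chrm1 they were Spns2 and Tmem181b-ps (both 0.97), for Chrm4 Ripor1 and Mast3 (both 0.97), and for Chrna5 Zfp763 and Mir22hg (both 0.97). Chrna7 ran with Ylpm1 and Tenm2 (both 0.94), Chrnb2 with Armc6 (0.98) and Slc22a23 (0.97), and Ache with Dpp9 (0.97) and Mcu (0.95). The genes named were picked as the highest of all candidates for each member over 9 libraries. The part of depth and dissection in these values was not tested.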

How the data were processed

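Bulk RNA of mouse hippocampus was analysed in 9 libraries, grouped by their titles. The authors deposited FPKM in 2 tables, and per the submitters' processing notes used mm10, HISAT2 2.1.0 and featureCounts 1.5.0-p3. The study's methods name other versions of both tools, ribosomal RNA depletion and a stranded kit, and whether counting used the strand is not given in the sources used here. The deposited tables also give gene length in bases, a unit of its own. Library size was fitted to the FPKM of each library as the divisor that gave whole reads. FPKM times gene length and this divisor gave whole reads (within 0.05) for 100% of values, which is no check against a known library size. In the later table the divisor was 1.04 to 1.05 times the sum of recovered reads in Bet+HMD. In Con and HMD of that table it was 0.953 to 1.03 times that sum.

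The members and lists were chosen with earlier results of these data known. For each comparison, limma 3.58.1 (R 4.3.3) was fitted to log2(FPKM + 1) of the 2 groups, with an intensity trend, over all genes of a mean of at least 1 FPKM, with two-sided Benjamini-Hochberg adjusted p under 0.05. It was tested on simulated data. A fold change on this scale understates that of low genes. All members were named; of other lists, genes past the threshold, at most 4 of smallest p per list and direction, or else the 1 of smallest p; of the marker lists described gene by gene, the first 2 genes in the comparisons with Bet+HMD (Neurod6 and Zbtb20 were added after their values were seen). Ratios were tested by two-sided exact permutation. Overlaps came from GENCODE M21 and promoters from RefSeq. Columns read as Con carry the prefix COL, so that this match is inferred. Replicate pairs differed by more than sampling noise. The chi-square per degree of freedom was 3.00 to 4.21 in Bet+HMD and 11.8 to 42.2 in Con and HMD. Alternatives covered the pseudocount, filter, scaling, samples in the fit, replicate block, reads and left-out libraries.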

Additional observations from a re-analysis of the deposited data

How the results depend on the processing

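For HMD against Con, no member passed under any of 9 alternatives or without any library. For Bet+HMD against HMD, 5 members passed in the reported fit, 3 on the TPM scale and 3 with all 3 groups in 1 fit; leaving out a library gave 4 to 5. For Bet+HMD against Con, 3 passed and leaving out a library gave 0 to 4, with 0 only where a Bet+HMD replicate was left out, which leaves 2 libraries in that arm. No filter, the TPM scale and all 3 groups in 1 fit gave 2 each, and median centring and limma voom 4 each. Counts of the other cholinergic genes called stayed within 1.5 times the reported ones.

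With the replicate number as a replicate block, 0, 4 and 2 members passed in the 3 comparisons. Chrm1 lost its call against HMD (adjusted p = 0.0729) and Chrnb2 its call against Con (adjusted p = 0.0928). Whether the number pairs libraries is not known. Same-numbered deviations correlated at -0.06, 0.35 and 0.32 for HMD against Con, and at no more than 0.02 in the other comparisons. No values for differently numbered libraries were kept to set beside them, so that these values cannot decide whether the number pairs libraries.

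Signs changed only for members that were not called and for ratios. For HMD against Con, leaving out libraries gave Chrm3 -0.17 to 0.052 and Chrna5 -0.28 to 0.083. For Bet+HMD against HMD it gave Chrm3 -0.23 to 0.0081 and Chrna4 -0.16 to 0.38; on the TPM scale Chrm3 was 0.044, and with quantile normalization Chrna5 was -0.0076. For Bet+HMD against Con it gave Chrm1 -0.10 to 0.080, Chrm4 -0.18 to 0.23 and Chrna5 -0.046 to 0.33; on the TPM scale Chrm1 was 0.21 and Chrm3 0.020, with quantile normalization Chrm1 was 0.22 and Chrna5 -0.072, and with median centring Chrm1 was 0.013. Among log2 ratio differences, leaving out libraries gave Gq- to Gi-coupled receptors -0.27 to 0.073, -0.15 to 0.030 and -0.32 to 0.0028 in the 3 comparisons, and 0.18 for Bet+HMD against HMD on recovered reads. It gave Chrm1 to Chrm4 -0.027 to 0.35 (HMD against Con) and -0.18 to 0.18 (Bet+HMD against Con), Chrna4 to Chrnb2 -0.13 to 0.49 (HMD against Con), and Chrna5 to Chrna4 -1.15 to 0.12, -0.34 to 1.01 and -0.67 to 0.055 in the 3 comparisons. The cause of these changes was not tested. Depth limits Chrna5 most, at 37 to 98 reads per library.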

Other observations

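The Y-linked genes did not move together. Eif2s3y was at 16.2 to 17.5 FPKM in Bet+HMD and at 5.53 to 7.42 FPKM in the other 6 libraries, whereas Ddx3y was at 12.7 to 13.8 FPKM in Bet+HMD and at 15.1 to 21.2 FPKM in the others. Kdm5d was higher in Bet+HMD too, at 2.64 to 2.94 FPKM against 1.12 to 1.60 FPKM in the other 6 libraries. Uty overlapped between Bet+HMD and both other groups. Meg3, an imprinted long noncoding RNA, took up 0.627% ± 0.0141 of the Bet+HMD reads (SD, n = 3). Its share was 0.0366% ± 0.00595 in HMD, and Con had 0.0378% ± 0.0147. Genes of ribosomal proteins held 0.515% ± 0.0448 of the Bet+HMD reads, 1.04% ± 0.101 of those of HMD and 1.17% ± 0.265 of those of Con. The part of these differences in the values of the cholinergic genes was not tested.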
